A study of Mus musculus with 16 samples.

Results

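The genes described here are 7 genes of MHC class II antigen presentation in the mouse: Cd74, H2-Aa, H2-Ab1, H2-Eb1, H2-DMa, H2-DMb1 and Ciita. They were picked by their symbols, and all 7 have a row in the count tables, which together name 30389 genes. Their levels were followed through single-cell RNA-seq libraries of mouse cortex at 17 months of age, made to compare THY-Tau22 mice with their wild-type (WT) littermates within each sex. Each level is a count of unique molecular identifiers (UMIs), summed per library or per class of cell barcodes and given as counts per 1000000 UMIs of the same barcodes (CPM). The choice of genes drew on earlier results of these data for microglia of males, so values of the male comparison in microglia and in all barcodes are given as a description, without a test.

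THY-Tau22 mice carry human 4-repeat tau with the G272V and P301S mutations under the Thy1.2 promoter, which is active in neurons, so the transgene is not driven in the microglia and macrophages that hold most of the transcripts described here. The transgene is heterozygous, the background is C57Bl6/J, and the WT mice are littermates that lack it. Brains were flushed with buffered saline, the neocortex was dissociated with enzymes, and cells were captured in droplets with barcoded beads (Drop-seq). Of the 16 libraries, the labels give 8 to males, 4 of each genotype, and 8 to females, 5 THY-Tau22 and 3 WT. Replicate numbers follow accession order and pair no mice. An animal number occurs in 2 sample titles, those of replicate 1 of the WT males and of the THY-Tau22 females, and the labels do not say why.

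A pair of libraries of opposite genotype, replicate 3 of the WT males and replicate 4 of the THY-Tau22 males, had 98.4% of their barcodes in common (2952 of 3000). Neither was used, which left 14 libraries, 3 in each group of males. After a filter of 200 to 7000 detected genes these held 24578 barcodes and 17735830 UMIs, with 755945 to 2089367 UMIs per library. The 7 genes had 3469 of these UMIs. A single library, THY-Tau22 male replicate 3, held 1418 of them (40.9%), and 28.9% of its barcodes fell in an unnamed cluster led by Kif5a, against 0.667% to 5.53% in the other 13. The main levels, shares and male ratios are therefore given with and without it. The smallest sum, 16 UMIs, was that of WT male replicate 4.

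MHC class II molecules display peptides from engulfed material to helper T cells. An alpha and a beta chain, encoded by H2-Aa and H2-Ab1 for I-A and with H2-Eb1 as the beta chain of I-E, are assembled on the invariant chain Cd74, which blocks the groove and guides the complex to endosomes. In the C57Bl6/J strain the alpha chain gene of I-E is inactive, so I-E is not displayed although H2-Eb1 is transcribed. There cysteine proteases trim Cd74, and H2-DM, a dimer of H2-DMa and H2-DMb1 products, exchanges the last fragment for a peptide. Ciita is the transactivator that is recruited to the X and Y boxes of these promoters and is itself induced by interferon gamma. In brain, border macrophages and dendritic cells carry these molecules, while parenchymal microglia at rest carry little.

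The class II genes lie in the major histocompatibility complex of chromosome 17, and the other members do not. In GRCm38.p6 the RefSeq annotation puts H2-DMa at chr17:34119693-34139101, H2-DMb1 at chr17:34153191-34160229, H2-Ab1 at chr17:34263227-34269418, H2-Aa at chr17:34282744-34287823 and H2-Eb1 at chr17:34305867-34316674. Ciita lies at chr16:10480014-10531064 and Cd74 on another chromosome. The count tables were built on mm10, and their tags come from the 3′ ends of transcripts. H2-DMb1 has a near-identical neighbour, H2-DMb2, and H2-Eb1 a related one, H2-Eb2. Counts of H2-DMb1 above all are uncertain where the counting could split reads between copies.

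The 130 bases before the annotated start are shown for 3 members with an entry in the RefSeq promoter table of the same build. Joint detection of the members in cells is described below. The X box was searched as AGNAAC followed directly by NGATG, the Y box as GATTGG and a cyclic AMP response element core as TGACG, each on both strands, and matches are in capitals. In the H2-Aa window the core matched on both strands, and the 2 matches overlap as TGACGTCA. The 3 windows run 5′ to 3′ on the strand of the gene.
H2-Aa, chr17:34287824-34287953, minus strand: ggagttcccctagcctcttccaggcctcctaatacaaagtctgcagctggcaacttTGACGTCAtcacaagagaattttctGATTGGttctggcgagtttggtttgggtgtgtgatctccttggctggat
H2-Eb1, chr17:34305737-34305866, plus strand: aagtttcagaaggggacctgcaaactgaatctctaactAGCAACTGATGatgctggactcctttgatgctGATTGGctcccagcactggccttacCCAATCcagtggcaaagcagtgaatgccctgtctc
H2-DMb1, chr17:34153061-34153190, plus strand: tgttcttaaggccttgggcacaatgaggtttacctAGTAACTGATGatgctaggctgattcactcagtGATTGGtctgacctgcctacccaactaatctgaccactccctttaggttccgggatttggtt
H2-Eb1 and H2-DMb1 hold an X box followed by a Y box at nearly the same distance from the start, at bases -92 to -82 and -60 to -55 in H2-Eb1 and at -95 to -85 and -62 to -57 in H2-DMb1. The H2-Aa window holds a Y box at -49 to -44 and no match to the X box as spelled here. The 2 H2-DMa entries of the table lie inside the gene as placed above, so they are not shown. Among 32851 windows of the same length the X box pattern was found in 32 (0.0974%), GATTGG in 3326 (10.1%) and TGACG in 4020 (12.2%). A match describes the letters and not a site in use. H2-Ab1, Ciita and Cd74 are named only.

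Transcripts of the class II genes were concentrated in a few classes. Barcodes were clustered without the 7 genes and clusters were named from marker lists. Microglia-like barcodes, 6988 of the 24578, held 58.4% of the UMIs of the 7 genes. The 189 macrophage-like barcodes held 21.3%, the 148 fibroblast-like barcodes 10.3%, and 1714 barcodes that stayed unnamed held 6.00%. Without THY-Tau22 male replicate 3 the microglia-like share was 49.8%, the macrophage-like 28.3% and the fibroblast-like 10.9%. As CPM of the class the order was different. The 7 genes summed to 5455 CPM in macrophage-like, 1345 CPM in fibroblast-like and 473 CPM in microglia-like barcodes, against 9.92 to 14.5 CPM in oligodendrocyte-like, astrocyte-like, endothelial-like and neuron-like barcodes. Without THY-Tau22 male replicate 3 the 3 higher values were 4805, 1019 and 258 CPM, in the same order. The fibroblast-like class was named from 3 of 6 markers.

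The share of barcodes with at least 1 UMI of the 7 genes was taken in barcodes thinned to 500 UMIs, which left out shallower ones: 3441 of the 6988 microglia-like, 80 of the 189 macrophage-like, 23 of the 148 fibroblast-like and 311 of the 1206 neuron-like barcodes. It was 36.0% in fibroblast-like barcodes (exact binomial 95% interval 27.6% to 45.1%), 22.9% in macrophage-like (15.4% to 32.0%) and 8.09% in microglia-like barcodes (7.21% to 9.04%). Neuron-like barcodes, which should lack these genes, gave 0.223% (0.03% to 0.80%). The pooled shares of all 3 classes lay above that value. Such background varied between libraries: in oligodendrocyte-like barcodes the share was 0.412% to 5.85% in THY-Tau22 males and 0% in each WT male. Whether it came from free RNA was not tested. Fibroblast-like barcodes came before macrophage-like ones in share and after them in CPM, and their intervals overlap. Before thinning the shares were 9.32%, 47.3% and 1.33% in microglia-like, fibroblast-like and neuron-like barcodes, with median depths of 505, 979 and 708.5 UMIs. Intervals cover counting error only.

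The 2 microglia-like clusters differed by gene. Cd74, the invariant chain, stood at 376 CPM in the cluster led by Ccl3, a chemokine gene, and at 20.6 CPM in the cluster led by P2ry12, a gene of resting microglia. Without THY-Tau22 male replicate 3, Cd74 was at 171 CPM in the first and 20.3 CPM in the second. H2-DMa, the peptide editor, stood at 87.4 and 75.1 CPM in the same clusters, and H2-DMb1 at 39.97 and 36.4 CPM. Microglia-like barcodes held 79.7% of all H2-DMa UMIs and 57.6% of all Cd74 UMIs, while in macrophage-like barcodes Cd74 reached 2296 CPM with H2-DMa at 125 CPM. Ciita, the transactivator, had 7 UMIs in 5 of the 14 libraries. None of these lay in the 6988 microglia-like barcodes, which allows a share of up to 0.0429% of barcodes with a UMI, or 0.701 CPM.

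**Figure D1:**
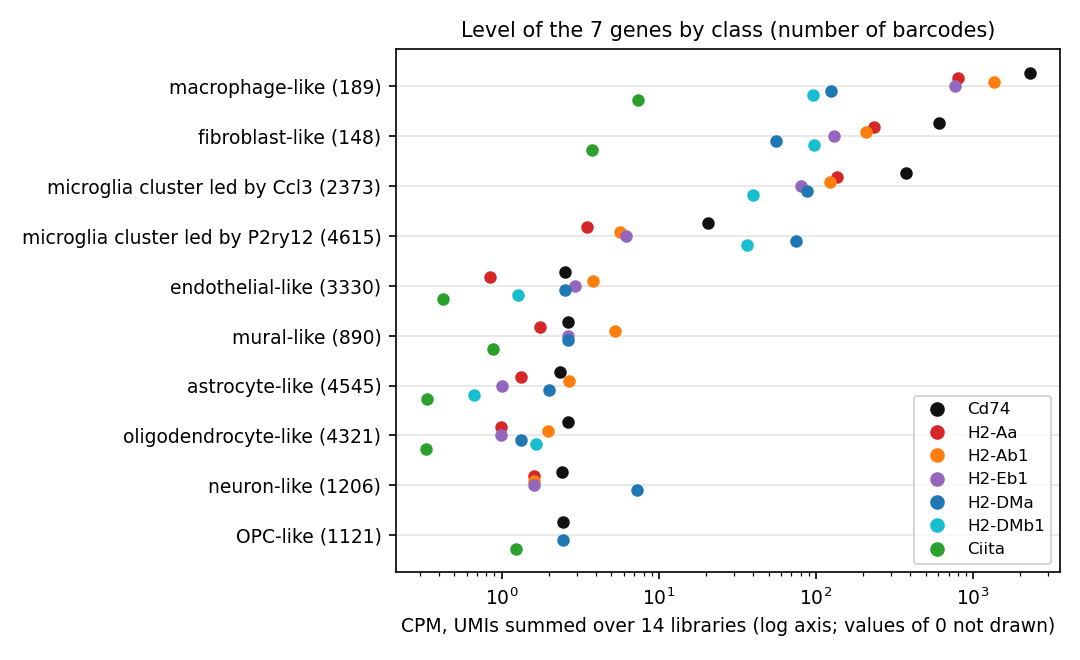
CPM of the 7 genes in 8 classes and in the 2 microglia-like clusters, on a log axis with values of 0 not drawn. Cd74 and the chain genes are highest in macrophage-like barcodes (Cd74 at 2296 CPM) and lie low in the P2ry12-led cluster (Cd74 at 20.6 CPM), where H2-DMa is at 75.1 CPM.

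Across the 18 clusters, the gene whose log2(CPM + 10) profile was closest to the summed level of the members was Ccl2, a chemokine gene, with a Pearson correlation of 0.900 over 9330 genes compared. Ifi27l2a, an interferon-stimulated gene, followed at 0.895, then Hmgb1-ps8 at 0.868 and Rpl39 at 0.867. The clusters share libraries and differ in depth, so the correlation is a description, and it carries no p-value.

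Within microglia-like barcodes the members fell into 2 patterns of spread. Cd74 had 800 UMIs in 186 barcodes, up to 136 in a single barcode, and the 10 highest barcodes held 59.5% of them. For the chain genes that share was higher: H2-Aa had 280 UMIs in 48 barcodes (77.5% in the top 10), H2-Ab1 261 UMIs in 61 barcodes (67.4%) and H2-Eb1 175 UMIs in 36 barcodes (77.1%). H2-DMa had 346 UMIs in 313 barcodes, never more than 4 in a barcode, and its 10 highest held 7.23%. H2-DMb1 was spread in the same way, with 163 UMIs in 150 barcodes and 13.5% in the top 10. Of the barcodes with the gene, 91.1% for H2-DMa and 92.7% for H2-DMb1 had exactly 1 UMI, against 47.9% for H2-Aa and 65.6% for Cd74. Without THY-Tau22 male replicate 3 the 10 highest barcodes held 37.7% of Cd74, 59.5% of H2-Aa, 61.0% of H2-Ab1 and 77.6% of H2-Eb1 UMIs, against 6.87% of H2-DMa and 14.8% of H2-DMb1 UMIs.

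**Figure D2:**
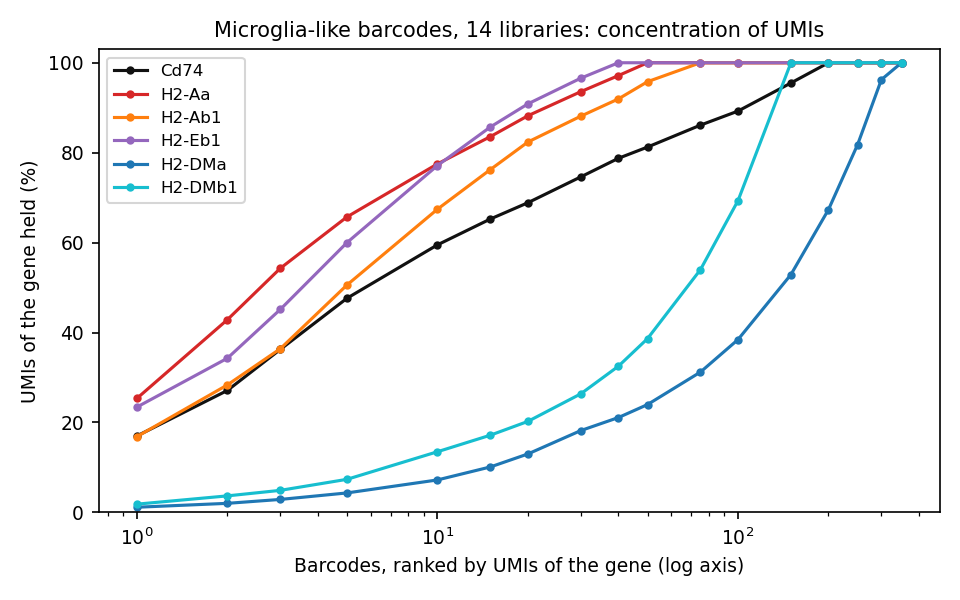
Percent of the UMIs of each gene in microglia-like barcodes (vertical axis) held by the barcodes ranked from the highest down (horizontal axis, number of barcodes, log scale). The 10 highest barcodes hold 59.5% of Cd74 and 77.5% of H2-Aa UMIs, against 7.23% for H2-DMa and 13.5% for H2-DMb1.

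Within the microglia-like class Cd74 was found in most barcodes with an alpha or beta chain gene. It was found in few barcodes with the editor, though in a larger share than in barcodes without the editor. In microglia-like barcodes thinned to 500 UMIs, Cd74 was detected in 17 of 26 barcodes with H2-Aa (65.4%) and in 73 of the 3521 without it (2.07%). The share was 55.0% of barcodes with H2-Ab1 (22 of 40) and 77.8% of barcodes with H2-Eb1 (14 of 18). Among barcodes with H2-DMa it was 5.26% (7 of 133), against 2.43% without, and with H2-DMb1 6.00% (3 of 50), against 2.49%. In macrophage-like barcodes Cd74 was detected in 13 of 15 barcodes with H2-Aa (86.7%), against 8.51% of those without. Here most barcodes with the editor also had Cd74, though such barcodes were few. Cd74 was detected in 2 of 2 barcodes with H2-DMa, against 17.8% without, and in 4 of 5 with H2-DMb1, against 16.3%. These barcodes come from shared libraries and the shares are descriptions.

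Of the 6988 microglia-like barcodes, 229 (3.28%) had a UMI of Cd74, H2-Aa, H2-Ab1 or H2-Eb1, 422 (6.04%) had H2-DMa or H2-DMb1 without these, and 32 had both kinds. The Ccl3-led cluster held 75.1% of the barcodes with a chain or Cd74 UMI, 44.1% of those with the editor alone and 31.8% of the 6337 with none. Median depths were 698, 600 and 495 UMIs in the same order, and deeper barcodes have more chances to show a gene.

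Barcodes with many class II UMIs were few. Over all classes 982 barcodes had any UMI of the 7 genes and 744 of them had exactly 1. The 57 barcodes with 10 or more, 0.232% of the 24578, held 2120 UMIs (61.1%), or 47.4% of the UMIs when THY-Tau22 male replicate 3 was left out. All 57 had Cd74, 56 had H2-Aa, 55 had H2-Ab1 and 49 had H2-Eb1, while 22 had H2-DMa, 17 had H2-DMb1 and 0 had Ciita. By class, 23 were microglia-like (1200 UMIs), 22 macrophage-like (660), 7 fibroblast-like (193) and 5 unnamed (67). Scrublet marked 2 of them as doublets.

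The identity of the 23 microglia-like barcodes of this kind was uneven. Microglia markers were found in 18, with 5 or more marker UMIs in 11 barcodes (866 of the 1200 UMIs) and under 2 in 9 barcodes (145 UMIs). Oligodendrocyte markers were found in 13 (111 UMIs), astrocyte markers in 10 (20 UMIs), dendritic cell markers in 9, macrophage and endothelial markers in 6 each, neuron markers in 5, monocyte markers in 4 and B cell markers in 3. The highest barcode, in THY-Tau22 male replicate 3, had 4994 UMIs, of which 296 (5.93%) were class II: 136 of Cd74, 71 of H2-Aa, 44 of H2-Ab1, 41 of H2-Eb1 and 4 of H2-DMa. It held 74 UMIs of microglia markers, 2 of them P2ry12, and 0 of macrophage markers. Another of that library had 67 class II UMIs among 684 (9.80%), with 4 UMIs of microglia markers and 2 of the monocyte marker Ccr2. The part of other cell types in the summed level was not tested. Of the 22 macrophage-like barcodes, 20 had macrophage markers (134 UMIs) and 18 had microglia markers (53 UMIs). Oligodendrocyte markers were found in 11 of them (16 UMIs), monocyte markers in 7 (17 UMIs) and dendritic cell markers in 5 (9 UMIs). The part of monocytes and dendritic cells in the level of this class was not tested. The 7 fibroblast-like ones had a median of 9167 UMIs, and together held 223 UMIs of astrocyte, 151 of fibroblast and 142 of endothelial markers, each list in all 7, with macrophage markers in 6. Their markers thus go in part against the class name.

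Such barcodes occurred in 13 of the 14 libraries, at 10 of 5755 barcodes in WT males, 24 of 4993 in THY-Tau22 males, 6 of 4890 in WT females and 17 of 8940 in THY-Tau22 females. In THY-Tau22 male replicate 3, 13 barcodes held 1148 of its 1418 UMIs (81.0%). In every library the 5 highest barcodes held from 32.0% to 69.0% of the class II UMIs.

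**Figure D3:**
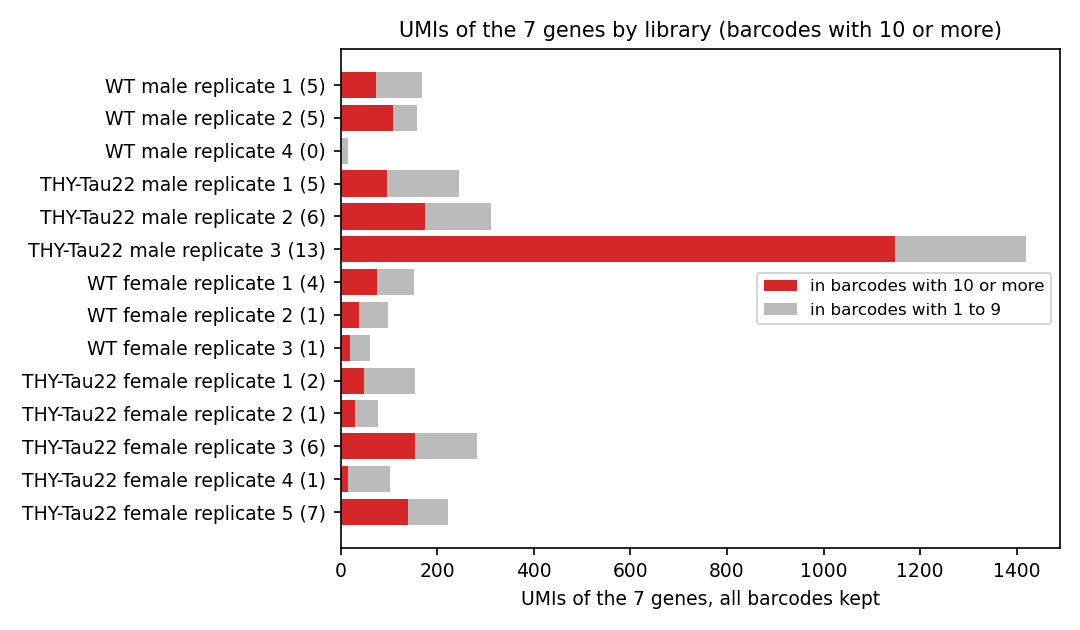
UMIs of the 7 genes per library, stacked as those in barcodes with 10 or more (red, number of such barcodes in parentheses) and those in barcodes with 1 to 9 (grey), for the 14 libraries. THY-Tau22 male replicate 3 reaches 1418 UMIs, of which 1148 lie in 13 barcodes, and WT male replicate 4 has 16 UMIs and no such barcode.

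Members were compared between genotypes in microglia-like barcodes, first in males. Cd74 was at 41.2, 15.5 and 18.7 CPM in WT males 1, 2 and 4 and at 224, 283 and 1396 CPM in THY-Tau22 males 1, 2 and 3. All 3 transgenic libraries lay above all 3 WT libraries, and replicate 3 lay far above the others. The same male libraries also separated by the median mitochondrial share of UMIs per barcode, mt-Rnr1 and mt-Rnr2 not counted. It was 0.409%, 0.571% and 0.351% in these WT and 0.952%, 0.889% and 1.33% in these THY-Tau22 males. Its part in the male values was not tested. H2-Aa was at 6.50, 0 and 0 CPM in the WT and at 51.4, 85.1 and 628 CPM in the THY-Tau22 males. The WT value rests on 3 UMIs in all, so the pooled ratio of 83.0 has a counting interval of 28.1 to 405.

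H2-Ab1 was at 30.3, 3.88 and 4.67 CPM in WT and at 73.4, 94.2 and 476 CPM in THY-Tau22 males, again without overlap. H2-Eb1 did overlap, with 26.0, 7.76 and 0 CPM in WT and 11.0, 85.1 and 329 CPM in THY-Tau22 males. In WT male replicate 1, 9 of the H2-Eb1 UMIs lay in a single barcode of 335 UMIs. For the editor the distances were smaller: H2-DMa was at 26.0, 69.9 and 37.4 CPM in WT and at 117, 79.0 and 168 CPM in THY-Tau22 males. H2-DMb1 was at 28.2, 31.0 and 14.0 CPM against 44.1, 36.5 and 64.0 CPM. Ciita was at 0 in every library. In a sum over barcodes, more cells with a transcript and more transcript per cell cannot be told apart.

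The fitted log2 fold change of THY-Tau22 against WT in males was 4.37 ± 0.66 (SE, n = 3 and 3) for Cd74, 6.05 ± 0.94 for H2-Aa, 3.58 ± 0.69 for H2-Ab1, 1.41 ± 0.43 for H2-DMa and 0.82 ± 0.40 for H2-DMb1. The WT libraries at or near 0 make the value of H2-Aa depend on the prior count. H2-Eb1 and Ciita were below the filter on low counts. Of all 5357 genes tested in this class, 1.31% were called (adjusted p under 0.05 and a log2 fold change of at least 0.5), 1.16% higher and 0.149% lower. For 16.7% of the genes every transgenic male was higher than every WT male, and for 8.85% lower. The 70 genes called became 4 without WT male replicate 1, 5 without THY-Tau22 male replicate 3 or WT male replicate 4, 9 without THY-Tau22 male replicate 1 or WT male replicate 2, and 222 without WT female replicate 3, which enters only through the shared estimate of spread. The 5 members fitted all had the THY-Tau22 males above, which the way they were chosen already favours, so nothing is read from that count.

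These sizes depended on one library and on few barcodes. The pooled ratio of Cd74 was 22.8 (counting interval 15.5 to 34.8) and 8.85 (5.85 to 13.9) without THY-Tau22 male replicate 3. That of H2-Eb1 was 9.97 (5.75 to 18.7) and 3.44 (1.77 to 6.99), and that of H2-DMa 2.99 (2.05 to 4.43) and 2.37 (1.55 to 3.67). For H2-DMb1, 1.88 (1.12 to 3.23) became 1.55 (0.844 to 2.85). The counting intervals leave out the spread between mice and the grouping of UMIs in few barcodes, so they are no test of a ratio. With the 5 highest barcodes of every library left out, the log2 fold change of Cd74 was 3.34 ± 0.59 and that of H2-DMa 1.4995 ± 0.45. Without THY-Tau22 male replicate 3 they were 3.09 ± 0.57 and 1.13 ± 0.47.

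The make-up of the microglia-like class differed between the groups of males, and varied widely among WT females. The Ccl3-led cluster took 25.8%, 21.7% and 14.2% of the microglia-like barcodes of WT males 1, 2 and 4 and 48.0%, 38.7% and 68.9% of those of THY-Tau22 males 1, 2 and 3. It took 33.3%, 58.8% and 15.0% in WT females 1 to 3 and 28.4% to 43.0% in THY-Tau22 females, groups that overlapped. Within that cluster the pooled male ratio was 14.4 (counting interval 9.26 to 23.8) for Cd74 and 4.75 (2.29 to 11.4) for H2-DMa. Within the P2ry12-led cluster it was 5.17 (2.08 to 14.6) and 2.22 (1.33 to 3.75). Without THY-Tau22 male replicate 3 the ratios were 6.06 (3.78 to 10.2) and 3.32 (1.49 to 8.38) in the Ccl3-led cluster and 5.67 (2.24 to 16.2) and 2.18 (1.25 to 3.78) in the P2ry12-led one. Other members went otherwise in the P2ry12-led cluster, where H2-Eb1 had 0 UMIs in THY-Tau22 and 11 in WT males. Of these 11, 9 lay in a single barcode of WT male replicate 1, so no direction is read from them. H2-Ab1 had 4 and 5 UMIs in that cluster, a ratio of 1.53 (0.303 to 7.08).

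Markers of other cell types were read in the same microglia-like barcodes of males. B cell markers did not overlap between genotypes, at 99.7 to 136 CPM in WT and 143 to 189 CPM in THY-Tau22 males, with Ms4a1 at 0 and most UMIs from Ighm. Dendritic cell markers summed to 107 to 182 and 125 to 265 CPM, with 722 of 755 UMIs over the 14 libraries from Fscn1. Oligodendrocyte markers summed to 628 to 1370 and 879 to 2097 CPM and astrocyte markers to 592 to 645 and 529 to 1113 CPM, both highest among males in THY-Tau22 male replicate 3. Macrophage markers summed to 140 to 145 CPM in WT and 119 to 201 CPM in THY-Tau22 males, with UMIs for 9 of 10 genes and Folr2 at 0. Monocyte markers summed to 15.5 to 18.7 and 18.3 to 33.4 CPM, with Ly6c2 at 0. The part of these cell types in the result was not tested.

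Detection pointed the same way as level. After thinning to 500 UMIs, the share of microglia-like barcodes with any member was 4.72% ± 1.46 (SD, n = 3) in WT males, 3.06% to 5.77%, and 13.99% ± 4.77 (n = 3) in THY-Tau22 males, 9.57% to 19.05%. In females it was 7.50% ± 4.25 (n = 3) in WT and 8.36% ± 1.98 (n = 5) in THY-Tau22 libraries, groups that overlapped. Oligodendrocyte-like barcodes also differed in males, at 0% in WT and 2.44% ± 2.97 (SD, n = 3) in THY-Tau22 libraries. Their highest library, at 5.85%, lay above the microglia-like share of every WT male. Neuron-like barcodes were at 0% in both groups of males after thinning. Before thinning their mean share was 0.309% in WT and 4.62% in THY-Tau22 males, with a highest library of 11.1%. The 7 genes summed to 0 to 5.95 CPM in astrocyte-like barcodes of WT and 11.9 to 53.0 CPM in those of THY-Tau22 males. In endothelial-like barcodes the groups overlapped, at 0 to 19.7 and 6.05 to 54.4 CPM. The part of background in the male difference was not tested.

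**Figure D4:**
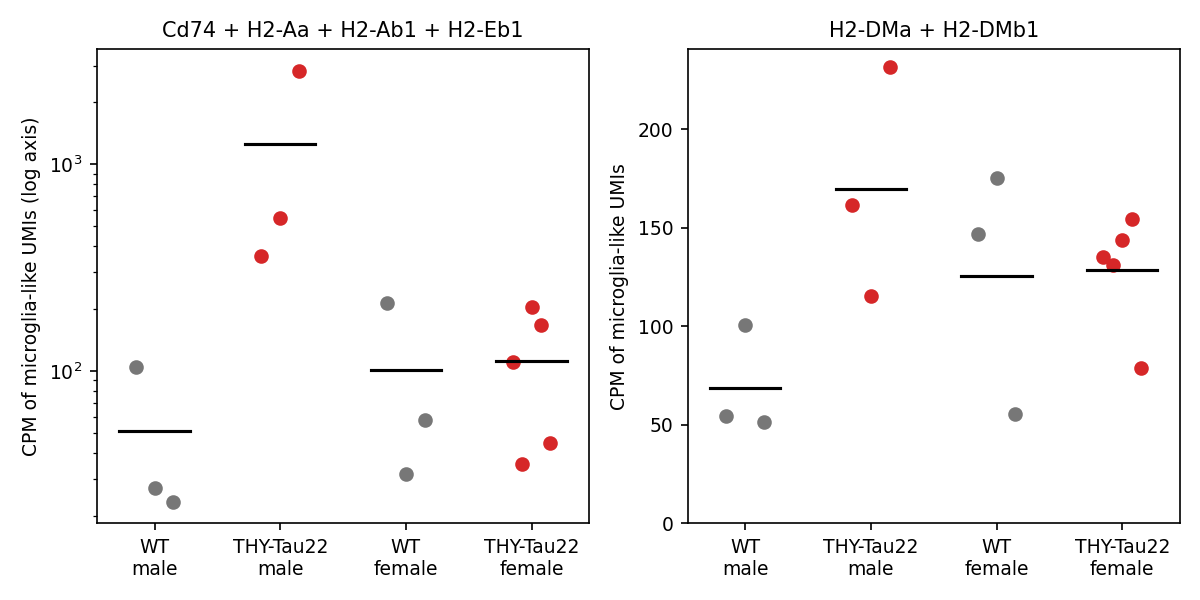
CPM of microglia-like UMIs per library, summed over Cd74, H2-Aa, H2-Ab1 and H2-Eb1 (log axis) and over H2-DMa and H2-DMb1, by group; each point is a library. The chain sum runs from 23.4 to 104 CPM in WT males and from 360 to 2829 CPM in THY-Tau22 males, while WT females (31.9 to 214 CPM) and THY-Tau22 females (35.7 to 203 CPM) overlap.

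In females no member passed the test between genotypes in microglia-like barcodes. Cd74 was at 153, 27.9 and 18.4 CPM in WT females 1 to 3 and at 96.6, 35.7, 117, 112 and 21.3 CPM in THY-Tau22 females 1 to 5. A single WT library thus lay above all the others, and the groups overlapped, as they did for every member, where 1.18% of all genes had every THY-Tau22 female above every WT female and 0.653% below. H2-DMa was at 107, 120 and 26.3 CPM in WT and at 91.1, 107, 99.2, 116 and 44.7 CPM in THY-Tau22 females. The log2 fold change was 0.52 ± 0.65 for Cd74, 0.52 ± 1.10 for H2-Aa, 0.20 ± 0.91 for H2-Ab1, 0.22 ± 0.38 for H2-DMa and -0.08 ± 0.36 for H2-DMb1 (edgeR quasi-likelihood test, adjusted p = 0.999 for each). Of the 5357 genes, 0.00% were called in females, with 149 at an unadjusted p under 0.05 and 0 called by DESeq2. Without WT female replicate 1, the library with Cd74 at 153 CPM, the value of Cd74 was 1.75 ± 0.74 (adjusted p = 0.999). B cell markers summed to 1375 CPM in that library, against 110 and 191 CPM in the other WT and 93.9 to 163 CPM in the THY-Tau22 females, and their part in the result was not tested. Whether the genotype difference itself depends on sex was not tested for the members.

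Over all barcodes Cd74 was again higher in each THY-Tau22 male than in each WT male, while the order among the WT males changed. Cd74 was at 25.4, 40.3 and 4.55 CPM in WT males and at 98.3, 107 and 444 CPM in THY-Tau22 males, a log2 fold change of 2.95 ± 0.65. The values for the other members were 3.05 ± 0.71 for H2-Aa, 2.14 ± 0.61 for H2-Ab1, 1.69 ± 0.65 for H2-Eb1, 1.47 ± 0.48 for H2-DMa and 0.97 ± 0.40 for H2-DMb1. All of these except H2-Eb1 had the 3 THY-Tau22 males above the 3 WT males, as had 22.6% of the 11643 genes tested, while 6.57% had them below. Of these genes 0.00% were called by edgeR in males (1792 at an unadjusted p under 0.05, 15 by DESeq2). H2-Eb1 had 24.2 CPM in WT male replicate 2, above the 10.5 CPM of THY-Tau22 male replicate 1.

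In females the all-barcode log2 fold changes were 0.37 ± 0.60 for Cd74, 0.35 ± 0.76 for H2-Aa, 0.32 ± 0.63 for H2-Ab1, 0.81 ± 0.76 for H2-Eb1, 0.25 ± 0.42 for H2-DMa and -0.03 ± 0.37 for H2-DMb1 (edgeR quasi-likelihood test, adjusted p = 1.00 for each). The groups of females overlapped for every member, and 0.661% and 0.524% of all genes had the THY-Tau22 females all above or all below. Of all genes 0.00% were called in females, with 203 at an unadjusted p under 0.05 and 0 by DESeq2. Ciita had 2 UMIs in replicate 1 of the WT males, 2 in replicate 1 of the THY-Tau22 males and 1 UMI each in WT females 1 and 3 and THY-Tau22 female replicate 2, too few to compare.

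Macrophage-like barcodes, 6 to 22 per library, had the highest class II levels of any class. In them Cd74 was held by 40 of the 189 barcodes, with 311 UMIs and up to 66 in a barcode. Libraries with under 10 such barcodes were left out of the fit, which leaves 2 against 2 males and, in females, 4 THY-Tau22 against 2 WT libraries. Cd74 was at 1590 and 3770 CPM in WT males 1 and 2 and at 1901 and 1292 CPM in THY-Tau22 males 1 and 2. The log2 fold change of -0.96 ± 0.69 did not pass (edgeR quasi-likelihood test, adjusted p = 0.590), nor did -1.17 ± 0.75 for H2-Aa or -1.10 ± 0.70 for H2-Ab1 (adjusted p = 0.546 for each).

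H2-Eb1 was at 972 and 2285 CPM in these WT males and at 272 and 144 CPM in the THY-Tau22 males, the latter from 3 and 1 UMIs. Its log2 fold change was -3.07 ± 0.79, with an adjusted p of 0.0600 by edgeR's quasi-likelihood test. It passed with RLE size factors (-3.11) and without THY-Tau22 female replicate 1 (-3.09), a library that enters only through the shared spread. In the libraries left out, which had 9 barcodes each, H2-Eb1 was at 0 CPM in WT male replicate 4 and 1288 CPM in THY-Tau22 male replicate 3, so with them the groups overlap. Among the libraries fitted, 31.4% of the 188 genes tested had both THY-Tau22 males above both WT males and 9.57%, H2-Eb1 included, had them below. In the latter library 153 of the 159 class II UMIs of the class lay in a single barcode of 2783 UMIs, which also held 25 UMIs of macrophage markers.

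In females the log2 fold changes in macrophage-like barcodes were 0.42 ± 0.58 for Cd74, 0.33 ± 0.69 for H2-Aa, 0.80 ± 0.64 for H2-Ab1 and 0.85 ± 0.63 for H2-Eb1 (edgeR quasi-likelihood test, adjusted p = 0.986 for each). No member separated the female groups, as 3.72% of genes did with THY-Tau22 above and 4.79% below. Of all 188 genes 0.00% were called in either sex, with 22 at an unadjusted p under 0.05 in males and 6 in females, and 0 by DESeq2 in both. Cd74 ranged from 100 to 4771 CPM among WT females and from 0 to 3857 CPM among THY-Tau22 females.

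Microglia-like barcodes with class II UMIs were next compared with those without, in the same libraries. Barcodes were thinned to 500 UMIs and the 7 genes were taken out of the table. In the 11 libraries with at least 10 barcodes on each side, 261 barcodes with any member were set against 2709 without, with the library as a block. Of 585 genes 5 were called (0.855%), 0.513% higher and 0.342% lower. Apoe, the lipid carrier, was higher by 1.56 ± 0.12 on the log2 scale (edgeR quasi-likelihood test, adjusted p = 3.07e-35, higher in 9 of 11 libraries). Lyz2, lysozyme, was higher by 1.19 ± 0.20 (adjusted p = 3.36e-07, 10 of 11) and Tyrobp, the Trem2 adaptor, by 0.56 ± 0.14 (adjusted p = 0.00379, 11 of 11). Jun fell by 0.55 ± 0.08 (adjusted p = 1.05e-08) and Acin1 by 0.82 ± 0.20 (adjusted p = 0.00470). Without the block 0 genes were called. The p-values and SE of this comparison, and of its split below, rest mostly on a spread shared over genes. They say little of how evenly a single gene differed between libraries.

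The comparison was then split between the 2 kinds of barcode, a split chosen after the data were seen, on unthinned barcodes. Against barcodes with none of the 7 genes, those with Cd74, H2-Aa, H2-Ab1 or H2-Eb1 differed in 43 of 1645 genes (2.61%), 25 higher and 18 lower, in 9 libraries. Apoe stood at 6447 CPM against 1232 CPM, a log2 fold change of 2.34 ± 0.14, and was higher in 9 of 9 libraries (edgeR quasi-likelihood test, adjusted p = 1.15e-58). Lyz2 rose by 1.93 ± 0.17 (adjusted p = 9.08e-27) and Clec7a, a lectin receptor of disease-associated microglia, by 2.39 ± 0.24 (adjusted p = 3.68e-21). Ccl6, a chemokine, rose by 2.30 ± 0.23 (adjusted p = 3.81e-20). Among the other genes higher were Cd52 at 1.92 ± 0.20, Il1b, an inflammatory cytokine, at 1.47 ± 0.20, Cd14, a lipopolysaccharide co-receptor, at 1.39 ± 0.25, Prdx1 at 1.45 ± 0.28 and Fth1, ferritin heavy chain, at 0.82 ± 0.13. Clec7a and Il1b are also among the leading genes of the Ccl3-led cluster. That cluster held 172 of all 229 microglia-like barcodes with Cd74 or a chain gene. Within it alone 21 of 1291 genes were called, 15 higher and 6 lower.

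Genes lower in these barcodes included the transcription factor genes Maf and Jun. On the log2 scale Maf was at -0.93 ± 0.17 and Jun at -0.76 ± 0.12, and Frmd4a was at -1.38 ± 0.32. Cx3cr1, the fractalkine receptor of resting microglia, stood at 3853 CPM against 5369 CPM, a log2 fold change of -0.53 ± 0.13 (edgeR quasi-likelihood test, adjusted p = 0.00424), and was lower in all 9 libraries. Cx3cr1 no longer passed within the Ccl3-led cluster alone, at -0.36. Ighm, an immunoglobulin gene, was higher by 1.07 ± 0.31 in 6 of 9 libraries (edgeR quasi-likelihood test, adjusted p = 0.0274), and the part of B cell RNA in the comparison was not tested.

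By list, 8 of 11 disease-associated microglia genes measured were higher: Apoe, Lyz2, Clec7a, Ccl6, Csf1, Cd63, Tyrobp and Cd9. Their median log2 fold change was 0.85, against -0.07 for all genes, and 1.52% of all genes were called higher. Of 10 homeostatic genes, Cx3cr1 and Fcrls (-0.74 ± 0.19) were lower and none higher, with a median of -0.45, where 1.09% of all genes were called lower. P2ry12 was at -0.48 (edgeR quasi-likelihood test, adjusted p = 0.069). Of 6 interferon-stimulated genes 1 was higher, the class I gene H2-D1 at 0.57 (edgeR quasi-likelihood test, adjusted p = 0.042). Of 12 other genes of the class II pathway 0 were called: Ctss, the protease that trims Cd74, was at 0.08, Ctsl at 0.12, and Lgmn, another lysosomal protease, at -0.53 (adjusted p = 0.063).

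Barcodes with H2-DMa or H2-DMb1 alone differed from those with none in 2 of 1569 genes (0.127%), in 14 libraries. Apoe was higher by 0.64 ± 0.11, in 9 of 14 libraries, and Lyz2 by 0.65 ± 0.16 in 13 of 14 (edgeR quasi-likelihood test, adjusted p = 0.0241). These were 2 of 10 disease-associated genes measured there, whose median was 0.22. The difference between the 2 comparisons was not tested.

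**Figure D5:**
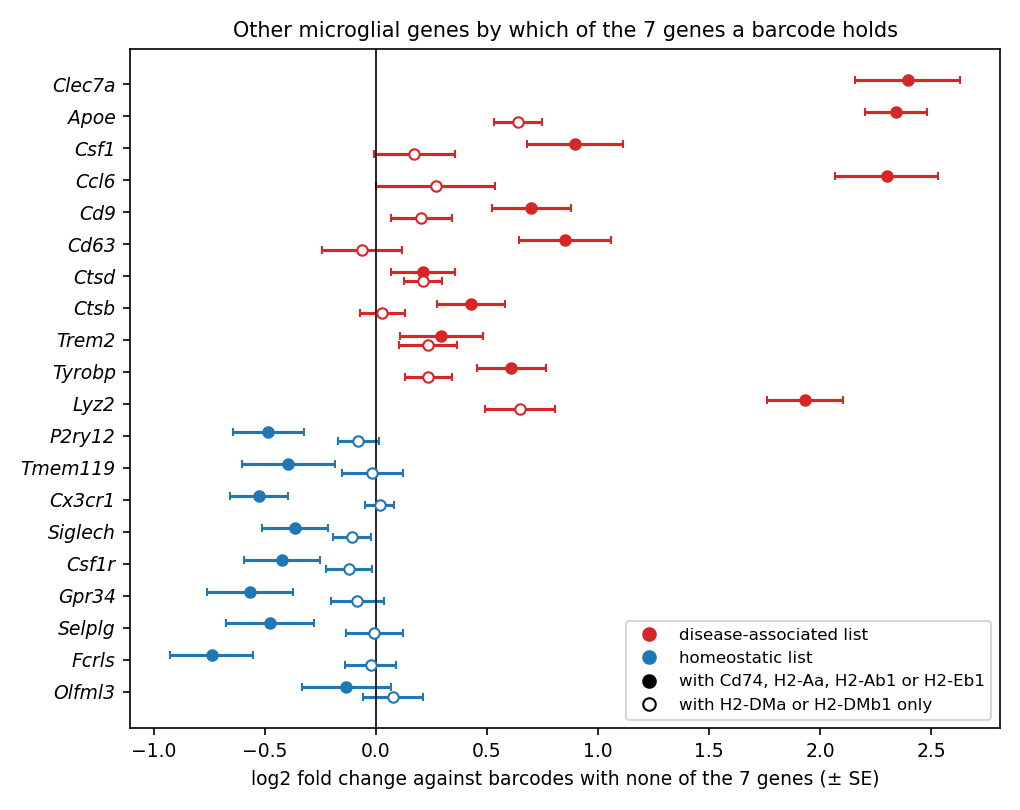
Log2 fold change with SE of genes of the disease-associated (red) and homeostatic (blue, 1 gene not drawn) lists in microglia-like barcodes with Cd74, H2-Aa, H2-Ab1 or H2-Eb1 (filled) and with H2-DMa or H2-DMb1 alone (open), each against barcodes with none of the 7 genes. Apoe lies at 2.34 and 0.64 in the 2 comparisons, and Cx3cr1 at -0.53 in the first.

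The rest of the class II pathway was read in the genotype contrast of microglia-like barcodes. The male values come from the comparison that guided the choice of genes, so they are given as a description, with no test. Over 19 other pathway genes the median log2 fold change was -0.00, against -0.01 for all genes. H2-Oa, which restrains H2-DM, was at 2.68, Ifi30, a lysosomal thiol reductase, at 1.13, Ctsl at 0.76, Lgmn at 0.62 and Ctss at -0.11. Over 11 interferon-stimulated genes the median was 1.13, with the class I genes H2-D1 at 1.82 and B2m at 1.48. Over 14 disease-associated genes it was 1.24, with Apoe at 2.80, Cst7 at 2.72, Clec7a at 2.57, Lyz2 at 1.96 and Cd63 at 1.05. In females 0 genes of each list were called in this class.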

How the data were processed

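As described in the labels and the methods of the study, the authors made Drop-seq libraries from the neocortex of 16 mice and sequenced them on a NextSeq instrument. The deposited values are raw UMI counts per gene and barcode, with 3000 barcodes in each table and no normalization, on build mm10; the aligner, the pipeline version and the annotation are not given in the sources used here. The authors' limit of 5% mitochondrial UMIs was tried as an alternative: mt-Rnr1 and mt-Rnr2 not counted, 28439 of the 28530 barcodes in the 16 libraries passed it, and with all mitochondrial genes counted 1242 did.

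Barcodes with 200 to 7000 detected genes were clustered without the 7 genes in scanpy 1.11.5 (Python 3.11.15) with 2500 variable genes, 19 principal components, 20 neighbours and leidenalg 0.10.2 at resolution 0.5, which gave 18 clusters, named from fixed markers. Scrublet marked 1603 barcodes (5.62%) as doublets, which were kept. Class names were rebuilt here and may differ from the study's. The range of depth over libraries is given in the report, and median depth was 429 to 736.5 UMIs per barcode.

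UMIs summed per library, with at least 10 barcodes of a class, were tested in R 4.3.3 with edgeR 4.0.16 (quasi-likelihood test, TMM, filterByExpr, 1 mean for each of the 4 groups), with Benjamini-Hochberg adjustment over all genes tested. DESeq2 1.42.0 and other settings were alternatives. The fits were tested on simulated data. Labels do not say that mice shared a preparation. In the genotype contrasts p-values measure the spread between libraries, with the estimate shared in part over genes. In the comparisons of barcodes with and without members, p-values and SE rest mostly on a spread shared over genes. Such a p-value says little of how evenly a single gene differed between libraries.

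The members and gene lists were chosen with earlier results of these data known. Genes named are the 7 members, genes of the pathway, interferon, disease-associated and homeostatic lists that were called or most abundant, the 10 called genes with the smallest p in each direction of the comparison of barcodes with and without members, and the genes of closest profile over clusters. Csf1, Cd9 and Ighm fall under the lists. Genotype contrasts of the members in microglia-like and in all barcodes of males carry no test. Some genes that the rule covers are not reported here.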

Additional observations from a re-analysis of the deposited data

Results flagged for a closer look

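Of 22 sets of libraries examined for a library far from the others of its group, 2 had one by Dixon's test. Its rate of about 1 in 20 by chance does not hold for these, since every other library of the group was at 0, which makes any value above 0 stand apart. Ciita over all barcodes was at 1.15 CPM in THY-Tau22 female replicate 2, a single UMI, and at 0 CPM in the other 4 THY-Tau22 females. H2-DMb1 in macrophage-like barcodes was at 438 CPM in THY-Tau22 female replicate 5, from 5 UMIs, and at 0 CPM in the other 3 THY-Tau22 females with at least 10 such barcodes. The title of THY-Tau22 female replicate 5 is 1 of 2 that carry the code MB22, whose meaning the labels do not give.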

How the results depend on the processing

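Sums of class II UMIs rest on few barcodes and, in males, on THY-Tau22 male replicate 3, and the counts of called genes move with the libraries and with the filter on low counts. In males, over all barcodes, 0 called genes became 15 with DESeq2, 295 with no filter and 88 without the 2 libraries with MB22 in the title, and 0 to 71 when 1 library at a time was left out (71 without WT female replicate 3). In microglia-like barcodes of males 70 became 117 with DESeq2, 135 with no filter, 2 with all 16 libraries as labelled, 31 at 500 or more detected genes, 37 without the 5 highest barcodes of each library, 224 without the MB22 libraries, 9 in the Ccl3-led and 0 in the P2ry12-led cluster alone, and 4 to 222 with 1 library left out. In macrophage-like barcodes of males 0 became 1 with RLE size factors (H2-Eb1, -3.11), 3 without the 5 highest barcodes, 3 without the MB22 libraries and 0 to 4 with 1 library left out. In females 0 became 32 (all barcodes), 15 (microglia-like) and 1 (macrophage-like) with no filter, 4 in microglia-like barcodes without the MB22 libraries and 2 in macrophage-like without the 5 highest barcodes, and stayed between 0 and 3 with 1 library left out.

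No paired analysis was possible because replicate numbers follow accession order and pair no mice. The comparison of barcodes with and without members has the library as replicate block: its 5 calls became 0 with no replicate block, 728 with no filter, 11 unthinned and 4 to 8 with 1 library left out, and Tyrobp turned to -0.28 with no filter. A threshold of 2 UMIs for barcodes with members was not run, since only 1 library had enough barcodes. The 43 calls of the split on Cd74 and the chain genes became 17 without barcodes of 10 or more UMIs, 21 in the Ccl3-led cluster, 28 with doublets removed and 24 to 47 with 1 library left out. Without thinning the shares with a UMI were 9.32% in microglia-like, 47.3% in fibroblast-like and 1.33% in neuron-like barcodes. The share in barcodes with 10 or more UMIs was 47.4% without THY-Tau22 male replicate 3.

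Among fitted log2 fold changes, signs of members turned in females only, among values that did not pass. Without the MB22 libraries the log2 fold change over all barcodes was -0.14 for Cd74, -0.24 for H2-Aa, -0.26 for H2-Ab1 and -0.0055 for H2-DMa. In macrophage-like barcodes it was -0.90 for Cd74, -1.26 for H2-Aa, -0.92 for H2-Ab1 and -0.043 for H2-Eb1, and -0.0821 for H2-DMa in microglia-like ones. H2-DMa was -0.0137 over all barcodes with 500 or more detected genes, and H2-DMb1 there was 0.0126 with no filter and 0.0373 with doublets removed. In microglia-like barcodes H2-DMb1 was 0.0088 with no filter, and in the Ccl3-led cluster H2-Ab1 was -0.13 and H2-DMa -0.18. With classes taken from marker UMIs, H2-Ab1 in macrophage-like barcodes was -0.082. With 1 library left out, the female ranges over all barcodes were -0.22 to 1.74 for Cd74, -0.12 to 1.07 for H2-Aa, -0.0391 to 0.98 for H2-Ab1, -0.23 to 0.61 for H2-DMa and -0.25 to 0.14 for H2-DMb1. In microglia-like barcodes they were -0.093 to 1.43 for H2-Aa, -0.62 to 1.14 for H2-Ab1, -0.27 to 0.64 for H2-DMa and -0.27 to 0.15 for H2-DMb1, and in macrophage-like ones -0.43 to 4.09 for Cd74, -0.55 to 2.38 for H2-Aa and -0.28 to 2.40 for H2-Ab1. The cause of these moves was not tested. Alternatives by cluster, by kind of barcode, without the 10-UMI barcodes and the share without THY-Tau22 male replicate 3 were chosen after seeing the data.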
